A study of Mus musculus with 32 samples.

Results

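The lysosomal cation channels of the mucolipin family (Mcoln1, Mcoln2 and Mcoln3, also called TRPML channels) and of the two-pore family (Tpcn1 and Tpcn2) were measured by RNA sequencing in mouse spinal cord. These 5 genes, of 42524 in the count table, are every gene with these family names. They were selected on their levels in the groups described here, so their own values are given as a description, with fold changes and errors but without p-values. In WT mice Mcoln1 and Tpcn1 were abundant, Tpcn2 was low and Mcoln2 and Mcoln3 were at trace levels. In G93A mice at 155 days Mcoln3 reached 34 to 147 counts per mouse against 0 to 2 in WT mice, Mcoln2 was also higher, Tpcn2 was about 2-fold higher, Tpcn1 was slightly higher and Mcoln1 differed little.

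G93A mice are a model of amyotrophic lateral sclerosis. They carry many copies of the human SOD1 gene with the G93A mutation, expressed from the human SOD1 promoter rather than in a single cell type, on the C57BL/6J background. Their wildtype littermates (WT) served as controls. OKN-007 is a nitrone with antioxidant and anti-inflammatory properties, given in the drinking water, and untreated mice received none. The labels give 2 times, 90 days and 155 days, of which the study's methods give the earlier as 95 days, about the onset of disease, while 155 days precedes end stage. At each time there were 4 untreated WT mice, 4 WT mice on OKN-007, 4 untreated G93A mice and 4 G93A mice on OKN-007, or 32 mice in 8 groups. The replicate numbers run from 1 to 16 within a time, and the mice of the 2 times are different animals. The labels do not give the sex or the dose of the sequenced mice. In the study's methods the treated cohorts killed at 95 and 155 days had its higher dose, for which only females were used. Treatment began before onset, except in a cohort treated from 95 days and killed at 155 days. The methods do not say which cohorts were sequenced.

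Mucolipins and two-pore channels sit in the membranes of endosomes and lysosomes and release calcium or sodium ions from the lumen into the cytosol. Both families open in response to PI(3,5)P2, a phosphoinositide of late endosomes and lysosomes, and two-pore channels also mediate the calcium release triggered by the messenger NAADP. Calcium leaving through TRPML1, the protein of Mcoln1, activates the phosphatase calcineurin, which dephosphorylates TFEB, a master transcription factor of lysosomal genes. Loss of TRPML1 causes the lysosomal storage disease mucolipidosis type IV. Most cells express Mcoln1, while Mcoln2 and Mcoln3 have a narrower distribution, Mcoln2 mainly in immune cells.

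By the GENCODE annotation of the GRCm38 build, Mcoln1 (ENSMUSG00000004567) lies at chr8:3500457-3515232 on the plus strand. Mcoln3 (ENSMUSG00000036853, chr3:146117450-146141806) and Mcoln2 (ENSMUSG00000011008, chr3:146149833-146195513) are neighbours on the plus strand of chromosome 3, with 8026 bases and 0 annotated genes between them. Tpcn1 (ENSMUSG00000032741, chr5:120534153-120588673) and Tpcn2 (ENSMUSG00000048677, chr7:145186524-145284011) are on the minus strand. The encoded proteins translated from the annotated transcripts have 580, 566 and 553 residues for the mucolipins 1 to 3 and 817 and 731 residues for the two-pore channels 1 and 2. Mcoln3 shared 58.6% of aligned residues with Mcoln1 and 56.5% with Mcoln2, Mcoln1 and Mcoln2 shared 49.0%, and the pair of two-pore channels shared 31.4%. The longest run of identical bases between any 2 of the 5 transcripts was 20 bases, between Mcoln2 and Mcoln3. Tpcn1 and Tpcn2 each overlap another annotated gene on the same strand, 2510016D11Rik with 5 to 32 counts per mouse and 1810010D01Rik with 10 to 59 counts per mouse. The overlap is one of gene bounds, and whether exons are shared was not checked. How reads in any shared stretch were counted was not given in the sources used here.

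The neighbouring genes Mcoln2 and Mcoln3 both differed between the genotypes at 155 days while the related Mcoln1 differed little, so the promoters of these 3 genes are shown. Each is the 250 bases before the RefSeq start on the sense strand (GRCm38.p6), with matches to searched motifs in capitals. The positions are chr8:3500269-3500518 for Mcoln1, chr3:146149924-146150173 for Mcoln2 and chr3:146121541-146121790 for Mcoln3. All 3 RefSeq starts lie inside the GENCODE bounds of their gene. The windows of Mcoln2 and Mcoln3 lie wholly downstream of the GENCODE gene starts, 146149833 and 146117450. The bases before those GENCODE starts were not searched.
Mcoln1: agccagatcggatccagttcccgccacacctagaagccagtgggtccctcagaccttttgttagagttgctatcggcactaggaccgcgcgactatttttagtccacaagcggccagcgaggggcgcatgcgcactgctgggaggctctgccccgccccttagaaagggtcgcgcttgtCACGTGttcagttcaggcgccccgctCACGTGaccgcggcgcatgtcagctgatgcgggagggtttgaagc
Mcoln2: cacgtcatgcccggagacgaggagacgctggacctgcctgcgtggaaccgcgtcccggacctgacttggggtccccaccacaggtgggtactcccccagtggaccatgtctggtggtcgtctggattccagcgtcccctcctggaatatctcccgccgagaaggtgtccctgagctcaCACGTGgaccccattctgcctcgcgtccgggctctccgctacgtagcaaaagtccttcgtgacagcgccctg
Mcoln3: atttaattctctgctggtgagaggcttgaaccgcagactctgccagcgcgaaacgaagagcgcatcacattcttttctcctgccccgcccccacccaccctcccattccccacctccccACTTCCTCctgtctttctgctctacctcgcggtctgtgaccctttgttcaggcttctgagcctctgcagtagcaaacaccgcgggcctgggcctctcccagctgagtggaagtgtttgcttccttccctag
The motifs were CACGTG, the E-box at the core of the element bound by TFEB and its relatives, GAGGAAGT, the core bound by the myeloid factor PU.1, and TGACTCA, the AP-1 site. Both strands were searched, and none of the 3 motifs overlaps another. CACGTG occurred at 71 and 45 bases before the Mcoln1 start and at 72 bases before the Mcoln2 start. GAGGAAGT occurred on the opposite strand 131 bases before the Mcoln3 start, where it reads ACTTCCTC. The corresponding window of Tpcn2, chr7:145284012-145284261, held none of the 3 motifs, and TGACTCA was in none of the 4 windows. Of 32851 promoter windows of the same length, 6.02% held CACGTG, 2.44% held GAGGAAGT and 4.46% held TGACTCA. A match in these letters is not a measured binding site.

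Libraries held 19701722 to 30138257 counts. Levels are given in CPM, the counts of a gene scaled to the size of the normalised library, and 3 counts, taken as the floor of detection, correspond to 0.144 CPM in the smallest and 0.0984 CPM in the largest library. Levels of different genes were compared per kilobase of transcript, and for the mucolipins also per kilobase of all annotated exons. The mean log2(CPM + 1) of 6 caudal Hox genes, which are expressed towards the lumbar and sacral cord, was 2.93 to 4.16 in untreated WT mice and 0.557 to 3.01 in untreated G93A mice at 155 days, and 3.86 to 4.16 against 1.26 to 2.97 on OKN-007. Of these 6 genes 2 were called lower in G93A untreated and 5 on OKN-007. Whether the pieces of cord came from different positions was not tested. Alb, a liver transcript, was highest in the untreated G93A mouse 12 (142 CPM) and the OKN-007 G93A mouse 15 (86.1 CPM) of 155 days.

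Per kilobase of transcript the order of the 5 genes was the same in all 6 groups other than the G93A groups of 155 days. Mcoln1 was highest (29.1 ± 1.97 CPM per kilobase in untreated WT mice at 155 days, SD, n = 4), followed by Tpcn1 (8.67 ± 0.338), Tpcn2 (1.47 ± 0.366), Mcoln2 (0.0456 ± 0.0474) and Mcoln3 (0.00274 ± 0.00548). The mice of neighbouring genes in this order did not overlap, except for Mcoln2 and Mcoln3, which overlapped in 5 of the 6 groups and lay at or below the floor of detection in most mice. In both G93A groups of 155 days Mcoln3 stood above Mcoln2 with no overlap, at 1.01 ± 0.426 against 0.226 ± 0.0657 CPM per kilobase untreated and 1.27 ± 0.345 against 0.427 ± 0.0665 on OKN-007. Mcoln2 and Mcoln3 together made up 0.172 ± 0.159% of the per-kilobase mucolipin signal in untreated WT mice at 155 days, 4.05 ± 1.52% in untreated G93A mice and 5.65 ± 1.16% in OKN-007 G93A mice. These shares depend on the length used, 2065 bases for the Mcoln1 transcript against 7555 for all its annotated exons. Per kilobase of all annotated exons, Mcoln1 was at 7.89, Mcoln2 at 0.173 and Mcoln3 at 0.867 CPM in untreated G93A mice of 155 days. By that length Mcoln2 and Mcoln3 made up a larger share. By either length Mcoln1 was by far the most abundant mucolipin transcript in every group. Tpcn2 made up 14.4 ± 2.8% of the two-pore channel signal in untreated WT mice, 25.1 ± 9.37% in untreated G93A mice and 25.3 ± 1.5% in OKN-007 G93A mice at 155 days.

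**Figure D1:**
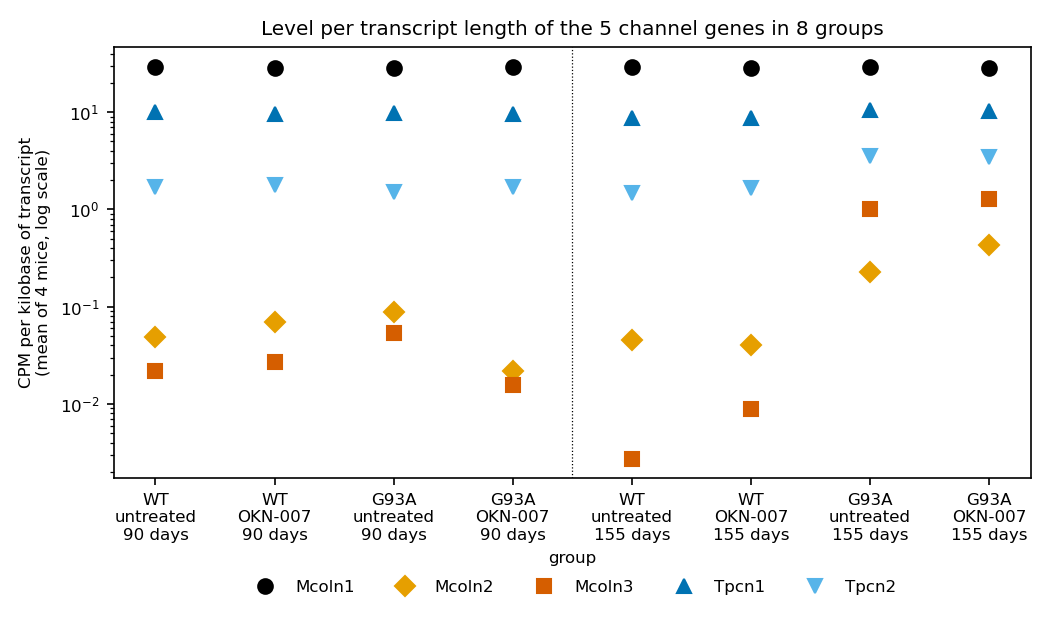
Mean level of each gene in CPM per kilobase of transcript (vertical log axis, n = 4 mice per point) in the 8 groups (horizontal axis), with 90 days left and 155 days right of the dotted line. Mcoln3 lies below Mcoln2 in 6 groups and above it in both G93A groups of 155 days, where it reached 1.01 and 1.27 CPM per kilobase.

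Mcoln1, the ubiquitous family member, varied little. Over all 32 mice it ranged from 55.2 to 65.3 CPM. At 155 days it measured 60 ± 4.08 CPM in untreated WT mice (SD, n = 4), 58.4 ± 1.89 in WT mice on OKN-007, 59.6 ± 3.76 in untreated G93A mice and 58.1 ± 1.66 in G93A mice on OKN-007. At 90 days the 4 group means lay between 59 and 60.7 CPM. The groups overlapped in every comparison. The log2 fold change of G93A over WT at 155 days was 0.0049 with a standard error (SE) of 0.064 untreated and 0.03 (SE 0.064) on OKN-007.

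Mcoln3, whose protein TRPML3 acts in early and late endosomes and in autophagy, was close to absent from WT cord. At 155 days the 4 untreated WT mice had 0, 0, 0 and 1 counts and the 4 WT mice on OKN-007 had 0, 1, 0 and 2 counts. The untreated G93A mice had 101, 85, 84 and 34 counts (3.94, 3.52, 3.44 and 1.12 CPM). The G93A mice on OKN-007 had 147, 111, 109 and 61 counts (4.98, 4.03, 3.68 and 2.48 CPM). Every G93A mouse of 155 days was therefore far above every WT mouse, while the spread among G93A mice was wide, with mouse 12 the lowest. Summed over mice and scaled to depth, the ratio of G93A to WT counts was 310 untreated (304 against 1 counts, exact 95% interval 55.3 to 12294) and 139 on OKN-007 (428 against 3 counts, 47.4 to 679), where the intervals cover counting error only. The fitted log2 fold changes, 7.75 (SE 0.68) and 6.92 (SE 0.58), depend on the small count that the fit adds to values near 0. Leaving out a mouse in turn gave 7.46 to 9.33 untreated, highest without the WT mouse 4, which held the only count, and 6.56 to 7.83 on OKN-007, highest without the WT mouse 8. At 90 days no mouse of either genotype had more than 6 counts. Those of the untreated WT mice were 1, 4, 0 and 2 and those of the untreated G93A mice 4, 6, 4 and 1, which overlap.

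Mcoln2, the immune-enriched family member, was likewise higher in the G93A groups of 155 days, where it stayed below Mcoln3. At 155 days it had 4, 1, 7 and 0 counts in untreated WT mice and 3, 3, 2 and 3 counts in WT mice on OKN-007. Untreated G93A mice had 15, 16, 17 and 10 counts (0.569 ± 0.166 CPM), and G93A mice on OKN-007 had 38, 31, 27 and 24 counts (1.08 ± 0.168 CPM). All 8 G93A mice lay above all 8 WT mice. The log2 fold change of G93A over WT was 2.28 (SE 0.51) untreated and 3.39 (SE 0.48) on OKN-007. Without the untreated WT mouse 3, which had 7 counts, the untreated value was 3.09 (SE 0.56). At 90 days Mcoln2 had 0 to 9 counts in every mouse and all groups overlapped. Mcoln2 and Mcoln3 passed the filter on low counts at 155 days through the G93A mice and did not pass it at 90 days, so that they had no fitted fold change there.

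**Figure D2:**
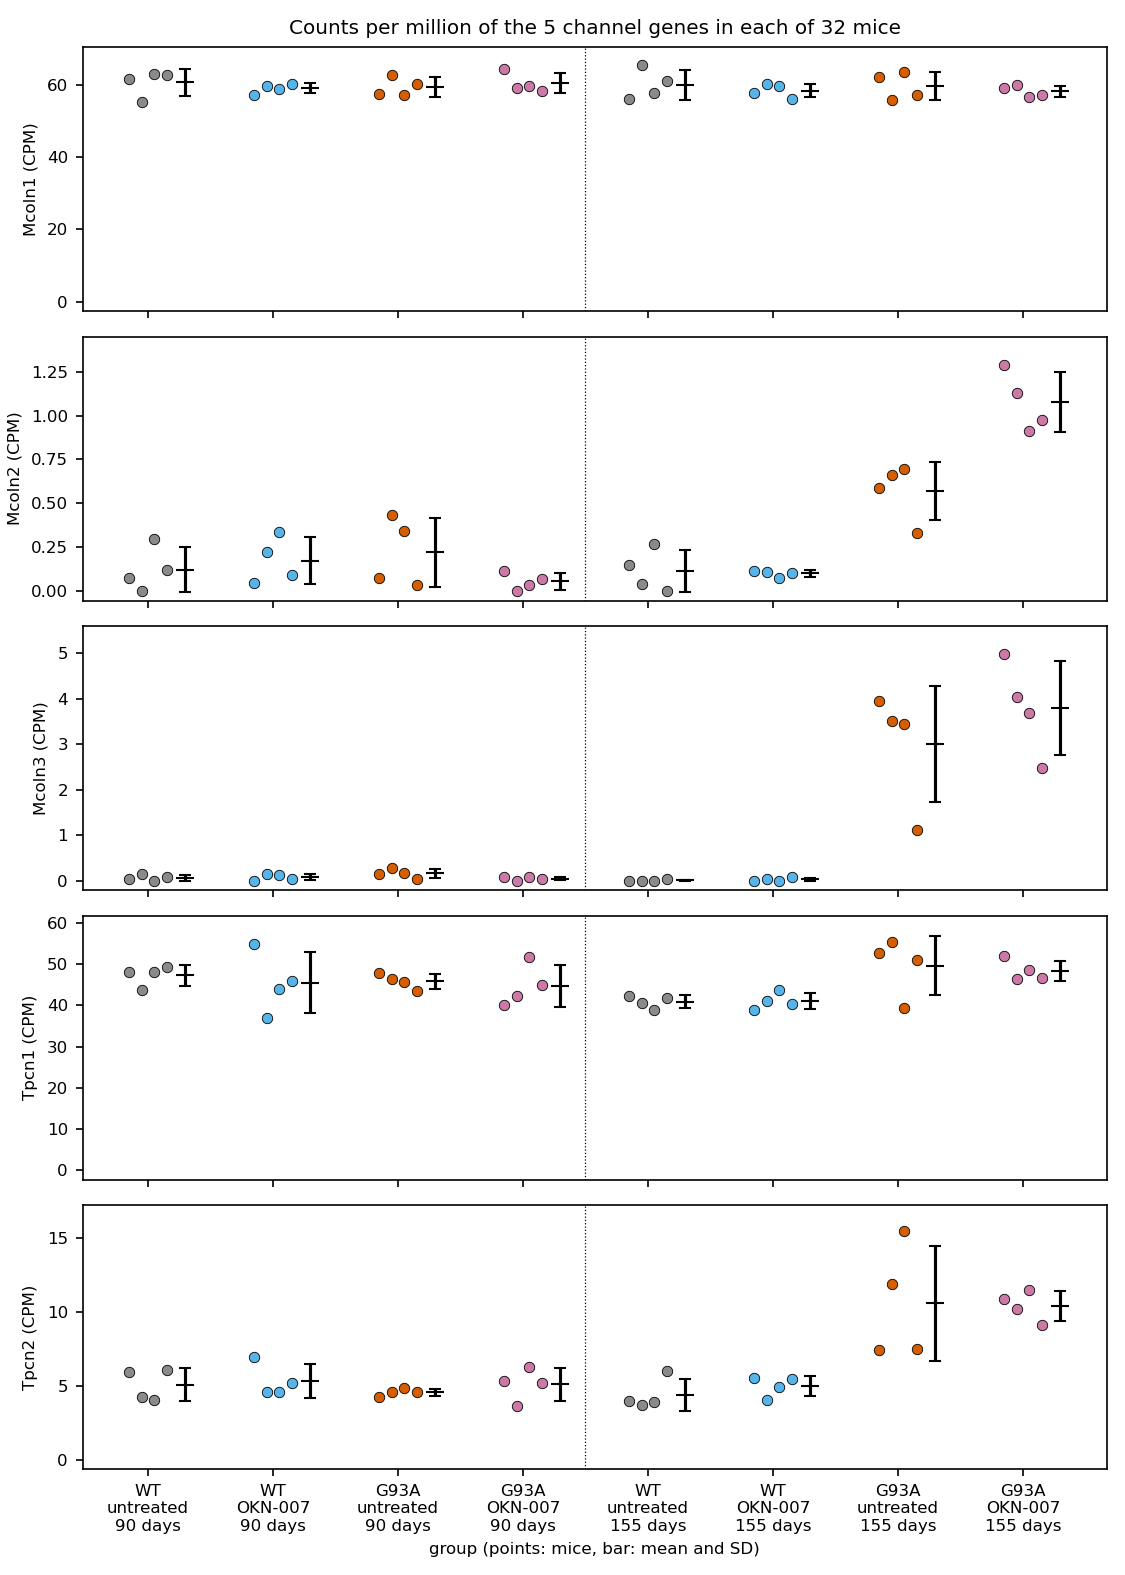
CPM (vertical axes, linear from 0) of Mcoln1, Mcoln2, Mcoln3, Tpcn1 and Tpcn2 in each of 32 mice (points) by group (horizontal axis), with the mean and SD of 4 mice to the right of the points and 155 days right of the dotted line. Mcoln3 reaches 1.12 to 4.98 CPM in G93A mice of 155 days and at most 0.289 CPM elsewhere, while Mcoln1 stays between 55.2 and 65.3 CPM in all mice.

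Tpcn2, the two-pore channel of lysosomes, was higher in G93A mice at 155 days in both arms. The untreated WT mice measured 3.95, 3.69, 3.93 and 6.03 CPM and the untreated G93A mice 7.42, 11.9, 15.5 and 7.5 CPM. On OKN-007 the WT mice measured 5.51, 4.03, 4.96 and 5.47 CPM and the G93A mice 10.9, 10.2, 11.5 and 9.12 CPM. The genotypes did not overlap in either arm, and the untreated G93A mice spread most (10.6 ± 3.91 CPM) with mouse 11 highest. The log2 fold change was 1.27 (SE 0.21) untreated, or 1.02 (SE 0.18) without mouse 11 and 1.48 (SE 0.22) without the untreated WT mouse 4. On OKN-007 it was 1.10 (SE 0.21). At 90 days the group means were 4.56 to 5.34 CPM and the genotypes overlapped, with a log2 fold change of -0.16 (SE 0.19) untreated and -0.053 (SE 0.19) on OKN-007. The overlapping gene 1810010D01Rik had 10 to 39 counts in untreated WT mice and 19 to 36 in untreated G93A mice at 155 days, against 85 to 184 and 190 to 379 counts for Tpcn2.

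Tpcn1, the two-pore channel found more widely along endosomes, differed least among the 4 genes that were higher. Untreated WT mice at 155 days measured 42.4, 40.6, 38.8 and 41.8 CPM and untreated G93A mice 52.8, 55.5, 39.4 and 51 CPM. Mouse 11, the lowest of these G93A mice and inside the WT range, was the one with the highest Tpcn2. On OKN-007 the WT mice measured 39, 41.1, 43.8 and 40.3 CPM and the G93A mice 51.9, 46.5, 48.5 and 46.6 CPM, without overlap. The log2 fold change was 0.30 (SE 0.086) untreated and 0.27 (SE 0.086) on OKN-007. When the fit also took up the Hox score it was 0.14 (SE 0.1) and 0.12 (SE 0.1), and in neither arm was Tpcn1 then past the threshold of an adjusted p of 0.05. It also missed the threshold on OKN-007 without the WT mouse 5 (0.25), without the G93A mouse 13 (0.22) and without both libraries of highest Alb (0.25). At 90 days Tpcn1 ranged from 37 to 55 CPM, both extremes being WT mice on OKN-007. The log2 fold change there was -0.046 (SE 0.1) untreated and -0.021 (SE 0.1) on OKN-007. The untreated means were 47.3 CPM in WT and 45.8 in G93A mice at 90 days, and 40.9 and 49.7 at 155 days. The WT mean was thus lower at 155 than at 90 days, while the G93A mean was somewhat higher.

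Over the whole table, 4 of the 5 channel genes had an adjusted p under 0.05 for G93A over WT at 155 days in each arm, all 4 higher, in edgeR's quasi-likelihood test with Benjamini-Hochberg adjustment over 18675 genes. Of all genes tested, 39.5% were called untreated (21.3% higher, 18.2% lower) and 41.5% on OKN-007 (23.3% higher, 18.2% lower). The genotypes did not overlap for 3 of the 5 genes untreated and 4 of the 5 on OKN-007, against 32.7% and 44.4% of all genes. The choice of these genes used the same comparison, so nothing is read from these counts. At 90 days 0 of the 3 genes tested were called in either arm, as were 0% of 18899 genes, while 1126 genes untreated and 1050 or fewer in the other 90-day comparisons had an unadjusted p under 0.05, none of them a channel gene. DESeq2 called 16 genes untreated and 3 on OKN-007 at 90 days, of which 0 were channel genes, and without the filter on low counts edgeR called 39 and 24, again with 0 channel genes.

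The difference between the ages was fitted directly in all 32 mice, as the untreated G93A to WT log2 fold change at 155 days minus that at 90 days. It was 0.022 (SE 0.084) for Mcoln1, 1.51 (SE 1) for Mcoln2, 6.57 (SE 1.4) for Mcoln3, 0.33 (SE 0.13) for Tpcn1 and 1.41 (SE 0.29) for Tpcn2. Mcoln3 and Tpcn2 were past the threshold, 2 of the 5, against 21.2% of the 19829 genes tested, and nothing is read from this count either. For Mcoln2 the 90-day libraries held 0 to 9 counts per mouse, and its value was 0.61 without the untreated WT mouse 3 of 90 days and 2.31 without the untreated WT mouse 3 of 155 days. For Mcoln3 it was 5.84 without the untreated WT mouse 2 of 90 days and 8.13 without the untreated WT mouse 4 of 155 days.

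OKN-007 was compared with no treatment in each genotype and at each age. In G93A mice at 155 days the log2 fold change of OKN-007 over untreated was -0.026 (SE 0.064) for Mcoln1, 0.94 (SE 0.38) for Mcoln2, 0.36 (SE 0.32) for Mcoln3, -0.029 (SE 0.086) for Tpcn1 and -0.0058 (SE 0.2) for Tpcn2. None of the 5 genes was called, and neither were any of the 18675 genes tested (0%), by edgeR or by DESeq2, while without the filter on low counts edgeR called 17 of 40747 genes, 0 of them channel genes. With the filter 755 of 18675 genes had an unadjusted p under 0.05 in edgeR's test. Mcoln2 was the only channel gene whose groups did not overlap, with 24 to 38 counts on OKN-007 and 10 to 17 untreated. Of all genes, 3.08% did not overlap. Mcoln2 passed the filter through these G93A mice and was chosen with these levels known, so nothing is read from this. Without the untreated G93A mouse 12 its log2 fold change was 0.74. In WT mice at 155 days the fold changes were -0.051 (SE 0.064) for Mcoln1, -0.0057 (SE 0.086) for Tpcn1 and 0.16 (SE 0.22) for Tpcn2, with Mcoln2 and Mcoln3 at 0 to 7 counts in either group. There 0 of the 5 genes were called against 0% of all genes, and 0 did not overlap against 1.83% of all genes. By DESeq2 2 genes were called in WT mice, and 10 by edgeR without the filter, of which 0 were channel genes. With the filter 549 genes had an unadjusted p under 0.05 in edgeR's test. In both 90-day comparisons of OKN-007, 0 of the 3 tested channel genes and 0% of all genes were called by edgeR, and 0 genes by DESeq2. Without the filter edgeR called 8 genes in G93A and 14 in WT mice at 90 days, of which 0 were channel genes. In G93A mice at 90 days the low counts lay the other way than at 155 days, with Mcoln2 at 0.0551 ± 0.0491 CPM on OKN-007 (6 counts in all) and 0.222 ± 0.196 untreated (20 counts) and Mcoln3 at 0.0462 ± 0.0366 and 0.162 ± 0.104, and the groups overlapped for both.

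**Figure D3:**
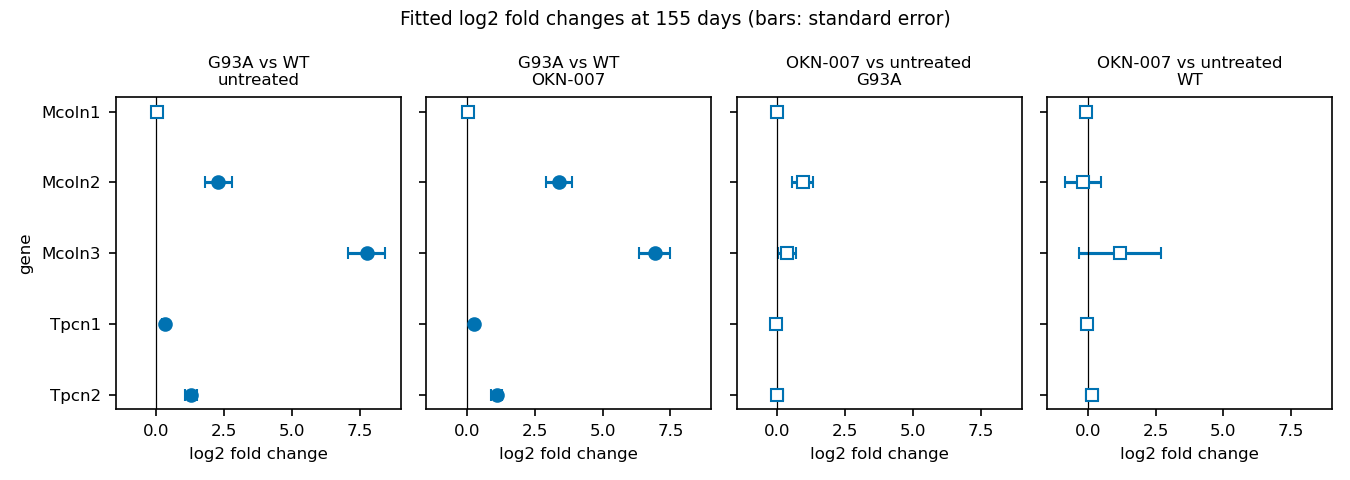
Fitted log2 fold changes (horizontal axes) with their standard errors (bars) of the 5 genes (vertical axis) in the 4 comparisons at 155 days, as filled circles past an adjusted p of 0.05 and open squares otherwise. The genotype panels hold 4 filled circles each, from 0.27 to 7.75, and the OKN-007 panels hold none.

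The samples are whole tissue, in which fewer cells of a type and less RNA per cell cannot be told apart. Markers of several cell types moved with genotype at 155 days beside the channel genes. All 9 microglial markers rose untreated and their summed level was 325 to 400 CPM in WT mice and 1420 to 2547 CPM in G93A mice. On OKN-007 it was 301 to 351 and 1753 to 2153 CPM. Among the untreated G93A mice the microglial sum was 1657, 2282, 2547 and 1420 CPM for mice 9 to 12. Mcoln2 followed this order (0.586, 0.662, 0.697 and 0.33 CPM), but on only 15, 16, 17 and 10 counts. The other channel genes followed it at most in part. Mouse 12 was lowest in the sum, in Mcoln2 and in Mcoln3, but Mcoln3 was highest in mouse 9, which had the next lowest sum. Mouse 11 was highest in the sum, in Mcoln2 and in Tpcn2 but lowest in Tpcn1, and Tpcn2 was lowest in mouse 9. Among the G93A mice on OKN-007 the sum was 2153, 1954, 1921 and 1753 CPM for mice 13 to 16. There Mcoln3 followed the order (4.98, 4.03, 3.68 and 2.48 CPM), and the other channel genes did so at most in part. The gene that followed the order was thus not the same in both arms. These orders of 4 mice were not tested, and nothing is read from them. In untreated mice all 5 astrocyte markers rose (summed 3047 to 3627 against 11939 to 15333 CPM) and all 5 neuronal markers fell (3092 to 3526 against 1739 to 2533 CPM). A sum is led by its most abundant genes. The median log2 fold change was 0.94 over the astrocyte and -0.65 over the neuronal markers. Of the 4 motor neuron markers 3 fell untreated and all 4 on OKN-007, and both oligodendrocyte precursor markers rose in each arm. Of the 5 T and NK cell markers 2 were tested and both were called higher, at summed levels of 0.13 to 0.497 against 1.16 to 1.6 CPM untreated. Cd3e, Cd8a, Cd4 and Nkg7 were at or under 3 counts in every untreated WT mouse. The tested markers passed the filter through the G93A mice, so nothing is read from their calls. Of the 5 markers of border and blood macrophages 3 were tested, of which 0 were called untreated (2.42 to 3.15 against 3.23 to 5.21 CPM) and 1, Mrc1, was called higher on OKN-007. The part of these cell types in the levels of the channel genes was not tested.

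Genes that work with the channels were taken from a list of 33, of which 32 were in the table and 31 were tested at 155 days. In untreated mice 11 were higher and 9 lower in G93A, with a median log2 fold change of 0.012 (0.00015 over all genes), and on OKN-007 12 were higher and 9 lower, with a median of 0.073 (0.018 over all genes). Of all genes tested, 21.3% were called higher and 18.2% lower untreated, and 23.3% and 18.2% on OKN-007. With the Hox score in the fit, 14 pathway genes were called untreated and 16 on OKN-007, and over all genes 5248 against 7378 and 5276 against 7747. Where a small group is counted, genes named beyond the fixed naming rule were taken after their values were seen. The activating lipid PI(3,5)P2 is made by a complex of the kinase Pikfyve, the phosphatase Fig4 and the scaffold Vac14, and 0 of these 3 genes were called in either arm. Pikfyve had a log2 fold change of -0.037 (adjusted p = 0.813) untreated and 0.073 (adjusted p = 0.621) on OKN-007.

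Of 5 genes of NAADP supply and sensing, 1 was higher and 1 lower in each arm. The higher one was Cd38, an enzyme that can make NAADP, at 37.6 ± 8.47 against 22 ± 0.84 CPM untreated (0.79, SE 0.12, adjusted p = 3.23e-05, and 0.85 on OKN-007, adjusted p = 1.12e-05). The lower one was Sarm1, an NAD hydrolase that drives axon degeneration, at 12.9 ± 2.39 CPM in untreated G93A mice against 20 ± 1.54 in WT mice (log2 fold change -0.61, SE 0.13, adjusted p = 0.000755) and at the same log2 fold change on OKN-007 (adjusted p = 0.000679). Jpt2, which encodes an NAADP-binding protein, was not called, with log2 fold changes of 0.15 (adjusted p = 0.32) and 0.20 (adjusted p = 0.161). Of 6 tested calcium effectors, 5 fell untreated, and on OKN-007 5 fell and 1, Pdcd6, rose. The 5 that fell untreated were the 3 calcineurin genes Ppp3ca, Ppp3cb and Ppp3r1, the kinase Camkk2 and the calcium sensor Syt7, the largest change being that of Ppp3r1, the regulatory subunit, at 308 ± 39 against 441 ± 26.9 CPM (-0.50, SE 0.091, adjusted p = 0.000238, and -0.50 on OKN-007, adjusted p = 0.000205).

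All 3 tested MiT/TFE transcription factors, which bind the E-box CACGTG, were higher in G93A in both arms. Tfeb measured 29.1 ± 3.02 CPM in untreated G93A mice and 22.5 ± 3.39 in WT mice (0.39, SE 0.1, adjusted p = 0.00532), and 0.50 on OKN-007 (adjusted p = 0.000614). Tfe3 measured 37.9 ± 2.52 against 28 ± 1.76 CPM (0.45, SE 0.073, adjusted p = 7.98e-05), and 0.39 on OKN-007 (adjusted p = 0.000299). Mitf was just past the threshold untreated (0.24, SE 0.094, adjusted p = 0.0491) and clearer on OKN-007 (0.46, adjusted p = 0.000634). The untreated call of Mitf was lost in 13 of 15 alternatives, with log2 fold changes of 0.12 to 0.27, and that of Tfeb with the Hox covariate (0.30). Tfec, the myeloid member of the family, was near the floor at 0.26 against 0.195 CPM and was not tested.

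Of 8 other lysosomal ion channels and transporters, 2 rose and 3 fell untreated, and 3 rose and 3 fell on OKN-007. P2rx4 and the chloride transporter Clcn7 rose and Clcn6, Trpm2 and Kcnma1 fell in both arms, and Tmem175 rose on OKN-007. P2rx4, an ATP-gated channel of lysosomes and of the plasma membrane of activated microglia, rose most, from 16.3 ± 0.999 to 31.6 ± 5.86 CPM (0.97, SE 0.11, adjusted p = 1.43e-06, and 1.05 on OKN-007, adjusted p = 4.00e-07). Kcnma1, the pore of the BK potassium channel, fell by 0.46 on the log2 scale untreated (adjusted p = 0.00139) and by 0.63 on OKN-007 (adjusted p = 6.58e-05). Of 6 lysosomal membrane proteins, 5 rose untreated (Lamp1, Lamp2, Cd63, Npc1 and Scarb2) and 4 on OKN-007, where Npc1 missed the threshold. The tetraspanin Cd63 rose from 81.8 ± 12 to 332 ± 83.2 CPM (2.04, SE 0.15, adjusted p = 3.55e-09, and 2.27 on OKN-007, adjusted p = 7.66e-10) and Lamp2 from 90.6 ± 8.42 to 168 ± 27.3 CPM (0.91, SE 0.095, adjusted p = 4.08e-07, and 1.01 on OKN-007, adjusted p = 8.61e-08). At 90 days, and for OKN-007 at either age, 0 of the tested pathway genes were called, by edgeR and by DESeq2.

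**Figure D4:**
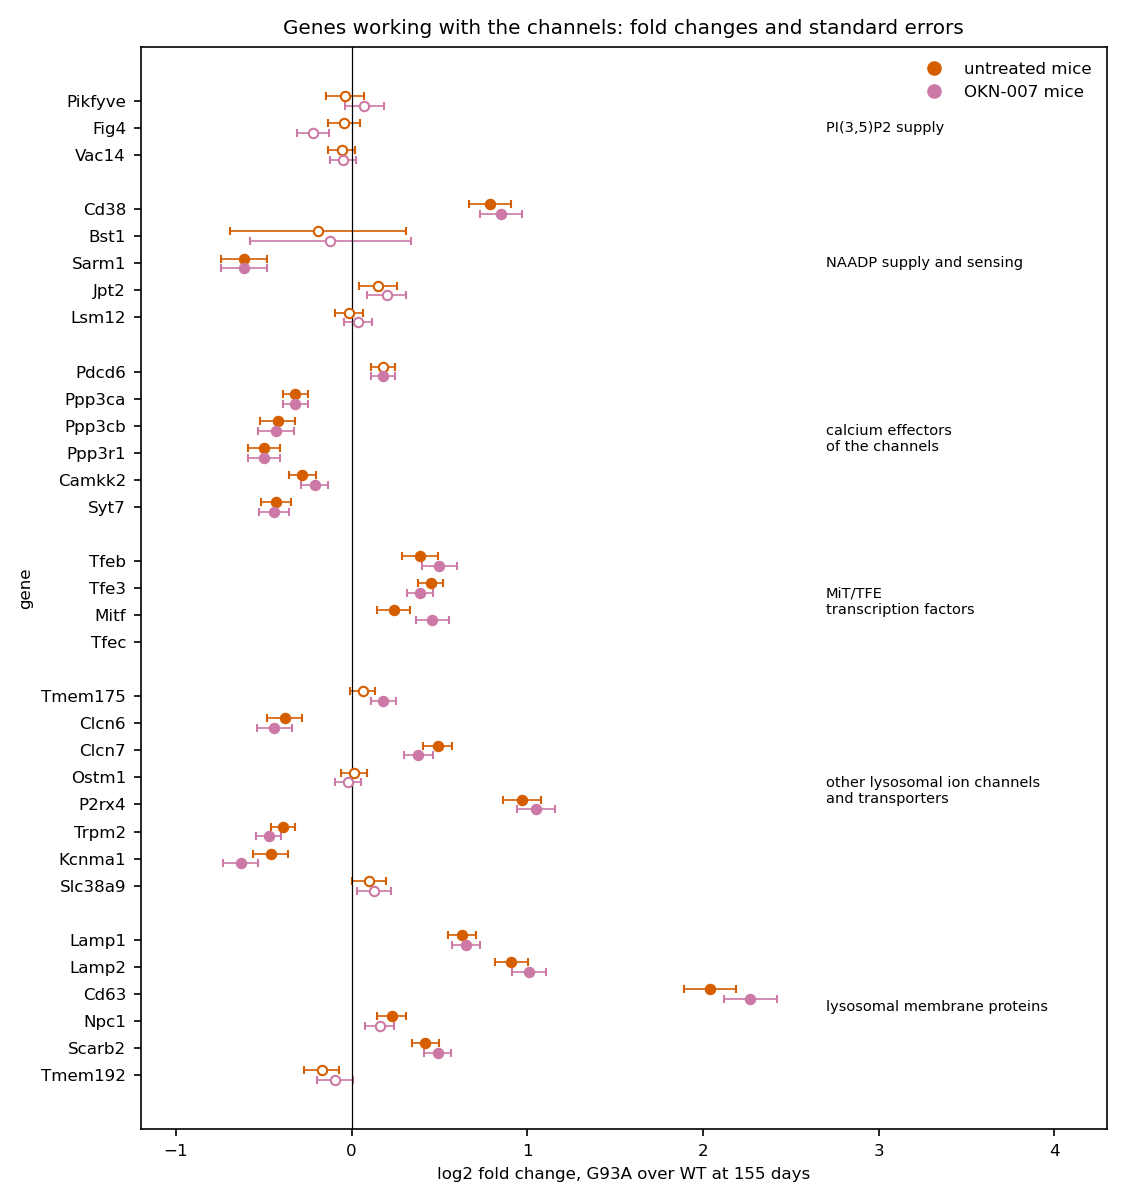
Log2 fold change of G93A over WT at 155 days (horizontal axis) with its standard error (bars) for the 32 listed pathway genes in the table (vertical axis), in untreated mice and in mice on OKN-007, filled where the adjusted p was under 0.05. Cd63 lies furthest to the right at 2.04 and 2.27, the calcineurin genes lie left of 0 and the PI(3,5)P2 genes lie near 0, while Tfec was not tested and has no point.

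The genes whose pattern over the 8 group means was most like that of each channel gene were found by the root-mean-square difference of centred log2 CPM among 19829 genes, as a description. For Mcoln3 they were Klrb1b (0.26), a lectin-like receptor, Cd22 (0.30), a sialic acid-binding receptor, and Ifi207 (0.31), where the spread of Mcoln3 itself over the groups was 2.07. Cd22 measured 0.197 CPM in untreated WT and 11.9 CPM in untreated G93A mice at 155 days, and Klrb1b 0.0364 and 3.41 CPM. For Mcoln2 they were Trib3 (0.23), Angptl4 (0.24) and the pseudogene Hmgb1-ps8 (0.24), against a spread of 1.03. Mcoln2 and Mcoln3 were near the floor outside the G93A groups of 155 days. Their pattern is therefore mainly the height of those groups, on which they were chosen. Other genes low elsewhere and raised there would also lie close. Tpcn2 was closest to Ripk1 (0.058), the kinase of necroptosis, Tfpi (0.071) and Pvr (0.071), against a spread of 0.47. Tpcn1 was closest to Ccdc115 (0.024), B3galt4 (0.025) and Nudt9 (0.028), with a spread of 0.094. Mcoln1 had a spread of only 0.02, about as small as its distances to Psmd7 (0.017), Stxbp4 (0.019) and Smpd3 (0.019), so it shows no pattern to match.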

How the data were processed

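RNA from spinal cord pieces of 32 mice was sequenced from stranded mRNA libraries. The deposited table holds raw read counts per gene for each mouse, made by the authors and not normalised. The study's methods give trimming, STAR alignment to GRCm38 and HTSeq counting. The submitters' processing notes list STAR, featureCounts, the mouse builds GRCm39 and mm39, and the human build hg38. Which of these made the deposited counts was not clear from the sources used here. The strand setting was not given in the sources used here. Gene IDs were paired with GENCODE M21 (41218 of 42524, 96.9%), from which positions and transcript lengths come. Genes passing filterByExpr (minimum count 10) were tested with edgeR 4.0.16 (R 4.3.3; TMM, quasi-likelihood test), with the 16 mice of an age fitted as 4 groups and the age difference fitted in 32 mice. Adjusted p-values are Benjamini-Hochberg over all genes tested, with a threshold of 0.05. Alternatives were DESeq2 1.42.0, other scaling, no filter, a Hox covariate, fewer or more groups, a replicate block and leaving out mice. Fold change errors are standard errors, with a prior count of 0.125 in the fit. The test was tested on simulated data. Named pathway genes were, among those called for genotype at 155 days in either arm, the top 3 and bottom 3 by log2 fold change, and in addition Tfeb, Tfe3, Mitf, Tfec, Pikfyve and Jpt2. The channel genes and all lists were chosen with earlier results of these data known. The labels do not say whether mice shared a litter or a preparation, so p-values measure the spread between these samples. Promoters are from RefSeq (GRCm38.p6, 4 of the 5 genes matched).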

Additional observations from a re-analysis of the deposited data

Results flagged for a closer look

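In 40 sets of 4 mice (5 genes in 8 groups), 3 held a mouse far from the other 3 by Dixon's criterion at the 95% level, and chance gives about 2. That number assumes normally spread values, which the Mcoln2 and Mcoln3 sets near 0 counts do not have. Mcoln1 was 55.2 CPM in the untreated WT mouse 2 of 90 days, with the next at 61.7 CPM. Mcoln3 was 0.0328 CPM in the untreated WT mouse 4 of 155 days, a single count with the others at 0, which is always flagged. Tpcn2 was 6.03 CPM in that same mouse, with the next at 3.95 CPM.

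The untreated G93A to WT log2 fold change at 155 days minus that at 90 days, fitted in 32 mice, was 6.57 for Mcoln3 and 1.41 for Tpcn2. These 2 values are a description, since the genes were chosen on the same levels and Mcoln3 was at 6 counts or fewer in every mouse outside the G93A groups of 155 days. Among the named pathway genes the fold change differed between the ages for Cd63 by 1.69 (adjusted p = 4.88e-07 by edgeR), Lamp2 by 0.80 (adjusted p = 1.62e-05), P2rx4 by 0.99 (adjusted p = 1.84e-05), Tfe3 by 0.53 (adjusted p = 0.00015) and Tfeb by 0.52 (adjusted p = 0.0153), and for Ppp3r1 by -0.51 (adjusted p = 0.016). Cd63, Lamp2, P2rx4 and Ppp3r1 were named for their 155-day fold changes, which this difference contains. The pathway list was also chosen with earlier results known. The p-values of these genes are therefore not an independent test.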

How the results depend on the processing

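No count of called channel or pathway genes moved by more than 1.5 times under any alternative. Leaving out a mouse in turn left 4 to 4 channel genes called for genotype untreated at 155 days, 3 to 4 on OKN-007 and 2 to 3 for the age difference, where Tpcn1 was gained (0.42) without the untreated G93A mouse 11. The pathway counts ranged from 18 to 20 (20 with all mice), 18 to 21 (21) and 11 to 17 (13), and all counts at 90 days and for OKN-007 stayed at 0. Tpcn1 was lost in both arms with the Hox covariate, under which pathway counts were 14 and 16. Mcoln2 was not tested untreated when only the 2 groups compared were fitted, since it then missed the filter. Jpt2 reversed with the Hox covariate to -0.15 untreated and -0.10 on OKN-007, and Pikfyve untreated reversed to 0.073 and 0.017 without the untreated WT mice 1 and 3 of 155 days (range without a mouse -0.11 to 0.073), all below the threshold with the cause not tested. The replicate numbers do not pair the mice, which are different animals. The 16 correlations of same-numbered mice between times ran from -0.215 to 0.134 (median -0.0116, 2 over 0.1). With a replicate block, 2 channel genes and 15 pathway genes were called for the age difference, against 2 and 13 without. Depth limits Mcoln2 and Mcoln3, which exceeded 3 counts in 15 and 13 of 32 mice.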
